A study of Mus musculus with 4 samples.

Results

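The genes described here are 37 mouse genes used as marks of neutrophils, monocytes and the macrophages that monocytes become. They were chosen with earlier results of these data known. Membership went by symbol: a probe belonged to a gene when its RefSeq accession on the array mapped to that symbol. The brightest probe stood for the gene. All 37 had a probe, and 34 passed the filter on dim probes, out of 24563 features tested (17012 of them genes with a symbol). The RNA came from the cortex on the injured side of C57BL/6 mice of 8 weeks, 24 h after permanent occlusion of the left middle cerebral artery by electrocoagulation, a model of ischaemic stroke. There were 2 groups of 4 samples: mice labelled Ndrg2KO, knockout for the astrocyte-rich gene Ndrg2, and wild-type mice. Both groups had the same strain, age, operation and time, and the labels gave neither the targeting construct nor whether each sample was a separate animal, so p-values measure the spread among these samples alone, and that spread may be technical. Each of 4 arrays on 1 slide paired a knockout sample in Cy3 with the wild-type sample of the same replicate number in Cy5. No array had the dyes turned round, so a dye effect of a single probe and the genotype cannot be told apart.

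Neutrophils and monocytes are short-lived white cells made in bone marrow. After a stroke they cross the vessel wall by means of selectins and integrins, enter the injured cortex, and release granule proteins, oxidants and cytokines. Monocytes then mature into macrophages. Neutrophils carry much of their granule content from the marrow, where the granule genes are transcribed, whereas calprotectin genes stay highly transcribed in the circulating cell. Many myeloid genes, among them Itgam, Itgb2, Adgre1, Cybb and Gpr84, are also used by microglia, the resident macrophages of the brain. No blood, uninjured cortex or sorted cells were among the samples, so the arrays do not show which cells held the RNA or whether they had come from the blood.

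The targeted gene was examined first. The single Ndrg2 probe was lower by only 1.13-fold in the samples labelled knockout (log2 difference -0.18 ± 0.05, SD, n = 4 arrays; limma, adjusted p = 0.0248). It passed in 11 of 18 alternatives and ranged from -0.81 with median centring to -0.043 with the scanner software's log ratios (limma, adjusted p = 0.529). Where this probe lies relative to the deleted part is not given, so it does not check the genotype, and the samples are called knockout-labelled. The share of spots well above background was 73.6 to 74.9% for knockout-labelled samples and 76.7 to 79.0% for wild-type samples. Median raw signals were 152 to 175.5 for knockout-labelled samples (Cy3) and 439 to 515.5 for wild-type samples (Cy5). In detection through 1 channel alone, dye and genotype therefore cannot be told apart. No saturated spot was found. Differences are log2 of knockout-labelled over wild type, and levels are normalized log2 signals, which can be compared between samples for 1 probe and not between genes. The number of arrays limited their precision.

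Of the 34 tested members, 11 fell and none rose in the knockout-labelled cortex (limma, adjusted p under 0.05). That is 32.4% lower, against 12.7% of all features lower and 8.63% higher. Because the members were chosen with earlier results of these data known, these and the following shares are descriptions and not independent support. An unadjusted p under 0.05, in either direction, was found for 24 of the 34 (70.6%), against 37.3% of all features. The members Cebpe, Slfn4 and Cd163 entered the test through the wild-type channel alone. With probes required to be well above background on every array in both channels, 31 members were tested and 11 fell (35.5%), against 13.6% of all features. The 11 included the receptor genes Gpr84, Clec4e, Fpr2 and Csf3r, the integrin genes Itgb2 and Itgam, and the granule and membrane genes Elane and Mcemp1. The rest were Ms4a4c and Ly6c1, listed here for monocytes, and the macrophage gene Adgre1. Ly6c1 is also among the endothelial markers. The median over the tested members was -0.31 on the log2 scale, against -0.02 over all features, and 30 of 34 (88.2%) lay below 0, against 55.7% of all features. A mean of -0.3 or lower was held by 17 of 34, against 4.38% of all features. Of the 23 that did not pass, 19 lay below 0 and 4 above it. Whether there were fewer such cells or less of each RNA per cell cannot be told apart in bulk tissue.

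The count depended on single arrays. It was 3 (8.82%) without replicate 2, against 4.96% of all features lower in that fit. It was 6 (17.6%) without replicate 3, against 6.58%, and 7 (20.6%) without replicate 1, against 5.99%. Without replicate 4 it was 19 (55.9%), against 7.81%. With the scanner software's log ratios it was 4 (11.8%), Adgre1, Itgam, Mcemp1 and Ms4a4c, against 7.13% of all features. With no replicate block it was also 4, against 6.36%.

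**Figure D1:**
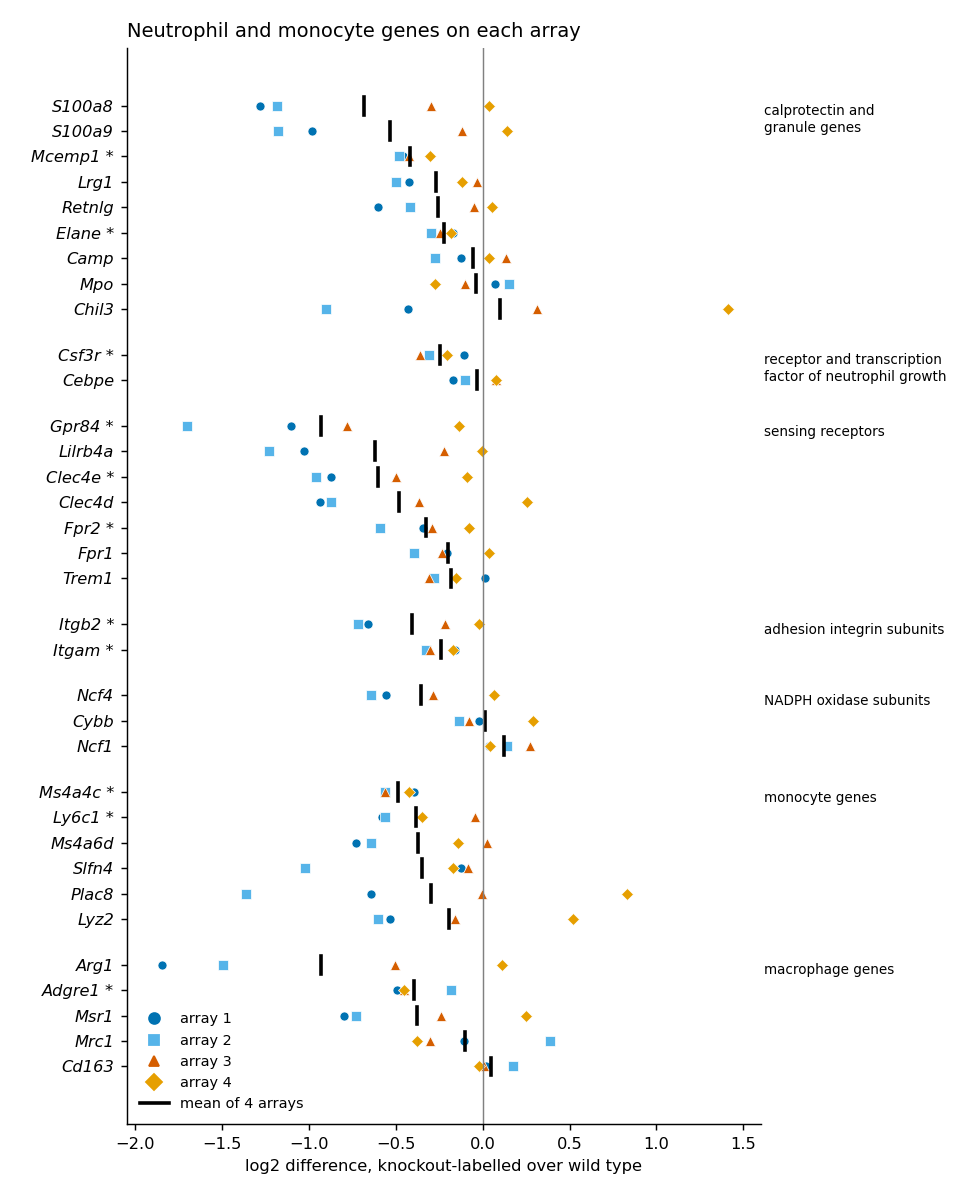
Log2 difference of knockout-labelled over wild type (horizontal axis) for the 34 tested members, grouped by role, with 1 marker per array, a bar at the mean of 4 arrays and a star at the 11 genes that passed (limma, adjusted p under 0.05). Most markers of arrays 1 and 2 lie left of those of arrays 3 and 4, while Mcemp1, Ms4a4c and Elane differ little between arrays.

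The promoters of the members were searched for sequence motifs, as a description, and some are shown. Whether the genes share regulation was not tested. Of the 37 members, 28 had a promoter in the RefSeq table (build GRCm38.p6). The 250 bases before the start were searched on both strands for GAGGAA, the core bound by PU.1, the main transcription factor of myeloid cells, for TTGCNNAA, a form of the site of the C/EBP factors that drive granulocyte genes, and for a form of the NF-kB site. A match on either strand counted, and overlaps between motifs were not removed. GAGGAA was held by 14 of the 28 members, and by 7 of the 9 that fell and had a promoter, against 23.1% of 27025 promoters. TTGCNNAA was held by 5 of 28 (Clec4e, Ltf, Ngp, Retnlg and S100a9), against 9.55% of all, and the NF-kB form by none of 28, against 1.4% of all. Of the 9 that fell, 1 held TTGCNNAA and 0 held the NF-kB form. A match is a description of the letters and not evidence of binding. The 250 bases of 4 genes that fell and of S100a8, a calprotectin gene that did not pass, follow 5′ to 3′, matches in capitals.
Elane (chr10:79886062-79886311, plus strand): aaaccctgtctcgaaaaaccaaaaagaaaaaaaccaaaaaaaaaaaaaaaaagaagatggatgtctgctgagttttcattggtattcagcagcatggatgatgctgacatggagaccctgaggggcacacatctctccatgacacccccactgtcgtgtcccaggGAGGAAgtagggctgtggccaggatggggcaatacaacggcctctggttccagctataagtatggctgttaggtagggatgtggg
Csf3r (chr4:126024409-126024658, plus strand): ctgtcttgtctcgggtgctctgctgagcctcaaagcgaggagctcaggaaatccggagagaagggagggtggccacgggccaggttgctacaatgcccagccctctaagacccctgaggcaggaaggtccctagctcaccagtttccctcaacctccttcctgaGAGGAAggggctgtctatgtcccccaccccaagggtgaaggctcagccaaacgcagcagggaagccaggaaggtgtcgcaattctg
Ms4a4c (chr19:11407411-11407660, plus strand): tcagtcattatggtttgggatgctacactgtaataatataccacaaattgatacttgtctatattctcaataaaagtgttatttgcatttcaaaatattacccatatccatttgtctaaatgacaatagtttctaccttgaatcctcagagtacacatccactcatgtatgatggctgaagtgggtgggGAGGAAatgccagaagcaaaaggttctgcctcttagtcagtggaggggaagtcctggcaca
Clec4e (chr6:123289872-123290121, minus strand): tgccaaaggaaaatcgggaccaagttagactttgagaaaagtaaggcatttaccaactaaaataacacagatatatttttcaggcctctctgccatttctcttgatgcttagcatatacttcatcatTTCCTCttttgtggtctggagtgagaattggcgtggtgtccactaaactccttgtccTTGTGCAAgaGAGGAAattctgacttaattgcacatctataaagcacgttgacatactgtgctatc
S100a8 (chr3:90668821-90669070, plus strand): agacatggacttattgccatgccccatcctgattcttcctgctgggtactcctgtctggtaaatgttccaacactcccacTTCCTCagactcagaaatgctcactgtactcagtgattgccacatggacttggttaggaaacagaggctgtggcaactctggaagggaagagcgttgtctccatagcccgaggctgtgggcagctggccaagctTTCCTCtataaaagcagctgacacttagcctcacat
Elane, Csf3r and Ms4a4c held 1 GAGGAA each, S100a8 held 2, both as the reverse complement, and Clec4e held 2, the first as the reverse complement, with a TTGCNNAA match on the other strand just before the second.

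The calprotectin genes S100a8 and S100a9 encode the calcium-binding pair that is among the most abundant proteins of neutrophils. S100a8 had log2 signals of 9.08, 9.72, 10.82 and 11.29 in knockout-labelled samples 1 to 4, against 10.36, 10.90, 11.12 and 11.25 in wild-type samples 1 to 4. Knockout-labelled samples 1 and 2 were the lowest of the 8, and the groups overlapped. The mean difference was -0.68 ± 0.65 (SD, n = 4; 95% interval -1.18 to -0.18) and did not pass (limma, adjusted p = 0.0597). S100a9 went with it, at 10.66, 11.01, 12.17 and 12.72 in knockout-labelled samples and 11.64, 12.19, 12.29 and 12.58 in wild-type samples. Again samples 1 and 2 of the knockout-labelled group were lowest of that group, and sample 4 was the highest of all. The difference of S100a9 was -0.54 ± 0.64 (limma, adjusted p = 0.109). On arrays 3 and 4 alone, a split chosen after the values were seen, the means were -0.13 for S100a8 and 0.01 for S100a9.

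Of the 9 tested genes grouped as calprotectin and granule genes, 2 fell (22.2%, against 12.7% of all features), Elane and the membrane protein gene Mcemp1. Elane encodes neutrophil elastase, a serine protease of the primary granules. Its log2 signals were 9.86, 9.51, 9.54 and 9.37 in knockout-labelled samples, against 10.03, 9.80, 9.78 and 9.56 in wild-type samples. Each knockout-labelled sample was below its partner on the array, although the groups overlapped. The difference was -0.22 ± 0.06 (SD, n = 4; limma, adjusted p = 0.0149). Mcemp1, a membrane protein gene named for mast cells, had 8.69, 8.74, 8.87 and 8.94 in knockout-labelled samples, against 9.14, 9.23, 9.30 and 9.25 in wild-type samples. The groups did not overlap, and the 1.34-fold fall was even over the arrays (-0.42 ± 0.08; limma, adjusted p = 0.00292).

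The other granule and secreted genes did not pass. Mpo, which encodes myeloperoxidase, stood at -0.04 with a 95% interval of -0.21 to 0.13, and the cathelicidin gene Camp at -0.06 with an interval of -0.22 to 0.11. The Mpo probe was dim (mean log2 intensity 6.82), and its interval holds for this processing alone. Lrg1, a glycoprotein gene that vessels also express, stood at -0.27 (limma, adjusted p = 0.0574) and the resistin-like gene Retnlg at -0.26. Chil3, a chitinase-like gene of neutrophils and alternatively activated macrophages, differed most between arrays. Its log2 signals were 9.23, 8.61, 10.01 and 11.59 in knockout-labelled samples and 9.66, 9.51, 9.70 and 10.17 in wild-type samples. Knockout-labelled sample 2 was the lowest of the 8 and sample 4 the highest, and the mean difference was 0.10 ± 1.01. Ltf, which encodes lactoferrin, was well above background on 1 array in each channel, and the granule protein gene Ngp on none in either, so neither was tested. The summed signal of the 9 tested genes of this group was 12.51 to 13.95 in knockout-labelled samples and 13.17 to 13.73 in wild-type samples, on the log2 scale.

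Csf3r encodes the receptor of granulocyte colony-stimulating factor, which drives neutrophil production. It had log2 signals of 15.62, 15.33, 15.45 and 15.33 in knockout-labelled samples, against 15.73, 15.64, 15.81 and 15.53 in wild-type samples. All 4 pairs were lower, the groups overlapped, and the difference was -0.25 ± 0.11 (SD, n = 4; limma, adjusted p = 0.0203). Its size depended on the processing. Over 18 alternatives it ran from -0.87 with median centring to -0.07 with the deposited matrix (limma, adjusted p = 0.390). Cebpe, the transcription factor gene of late granulocyte maturation, lies on chromosome 14, 2.81 Mb from Ndrg2 in the assembly of the gene table. It was well above background in 0 knockout-labelled and 3 wild-type samples. Its measured means were 6.44 in knockout-labelled and 6.47 in wild-type samples, and the difference did not pass (limma, adjusted p = 0.731, 95% interval -0.16 to 0.10). Cebpe entered the test through the wild-type channel alone, so the interval does not bound a change below background. Over 17 alternatives it ran from -0.92 with the deposited matrix (limma, adjusted p = 0.160) to 0.60 with median centring.

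Of 7 tested receptors that sense damage and microbes, 3 fell (42.9%, against 12.7% of all features) and all 7 means lay below 0 (against 55.7% of all features). Gpr84 encodes a receptor for medium-chain fatty acids that inflamed myeloid cells induce. Its log2 signals were 10.69, 10.05, 11.02 and 11.56 in knockout-labelled samples, against 11.79, 11.76, 11.80 and 11.70 in wild-type samples. The wild-type samples lay within a narrow range and every knockout-labelled sample lay below them, sample 2 the furthest and sample 4 by the least. The difference was -0.93 ± 0.65 (SD, n = 4), a 1.91-fold fall (limma, adjusted p = 0.0240). Clec4e encodes Mincle, a C-type lectin receptor for dead cells and mycobacterial lipids. It had 6.66, 7.04, 7.78 and 7.84 in knockout-labelled samples, against 7.53, 7.99, 8.28 and 7.93 in wild-type samples. The groups overlapped, with knockout-labelled samples 1 and 2 lowest, and the fall was 1.52-fold (-0.60 ± 0.40; limma, adjusted p = 0.0216).

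Clec4d, the lectin partner of Mincle, also had arrays 1 and 2 below arrays 3 and 4 and did not pass, at -0.94, -0.87, -0.37 and 0.25 on arrays 1 to 4 (limma, adjusted p = 0.0996). Lilrb4a, an inhibitory immunoglobulin-like receptor gene, stood at -1.03, -1.23, -0.22 and 0.00 on the arrays (limma, adjusted p = 0.0620). Of the formyl peptide receptor genes, which guide neutrophils to bacterial and mitochondrial peptides, Fpr2 fell and Fpr1 did not pass. Fpr2 had 6.99, 7.21, 7.62 and 7.81 in knockout-labelled samples, against 7.33, 7.81, 7.92 and 7.89 in wild-type samples. It was lower on all 4 arrays by differing amounts, the groups overlapped, and the difference was -0.33 ± 0.21 (SD, n = 4; limma, adjusted p = 0.0274). Fpr1 stood at -0.20 (limma, adjusted p = 0.0798) and Trem1, an amplifier of myeloid inflammation, at -0.18 (limma, adjusted p = 0.0728). Trem3 was well above background in 1 knockout-labelled and 2 wild-type samples and was not tested.

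Both subunits of the integrin Mac-1, by which neutrophils and monocytes hold to the vessel wall, fell. Itgb2, the shared beta subunit, had log2 signals of 9.03, 9.16, 9.61 and 9.62 in knockout-labelled samples, against 9.69, 9.88, 9.83 and 9.64 in wild-type samples. The groups did not overlap, though sample 4 of the knockout-labelled group came within 0.02 of its partner, and the difference was -0.41 ± 0.34 (SD, n = 4; limma, adjusted p = 0.0454). Itgam, the alpha subunit, had 14.96, 14.78, 14.85 and 14.67 in knockout-labelled samples, against 15.12, 15.11, 15.16 and 14.84 in wild-type samples. The difference was smaller and more even, at -0.24 ± 0.09 (limma, adjusted p = 0.0159). The subunits of the oxidase that makes superoxide in phagocytes did not pass. The catalytic subunit gene Cybb had 6.75, 6.83, 6.83 and 7.12 in knockout-labelled samples and 6.77, 6.96, 6.91 and 6.83 in wild-type samples. Its mean difference was 0.01, with a 95% interval of -0.16 to 0.18. The Cybb probe was dim (mean log2 intensity 6.88), and the interval holds for this processing alone. With the scanner software's log ratios Cybb stood at -0.26 (limma, adjusted p = 0.454). The cytosolic subunit genes went apart, Ncf4 to -0.36 ± 0.32 (limma, adjusted p = 0.0574) and Ncf1 to 0.12 ± 0.11, above 0 on all 4 arrays (limma, adjusted p = 0.139).

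**Figure D2:**
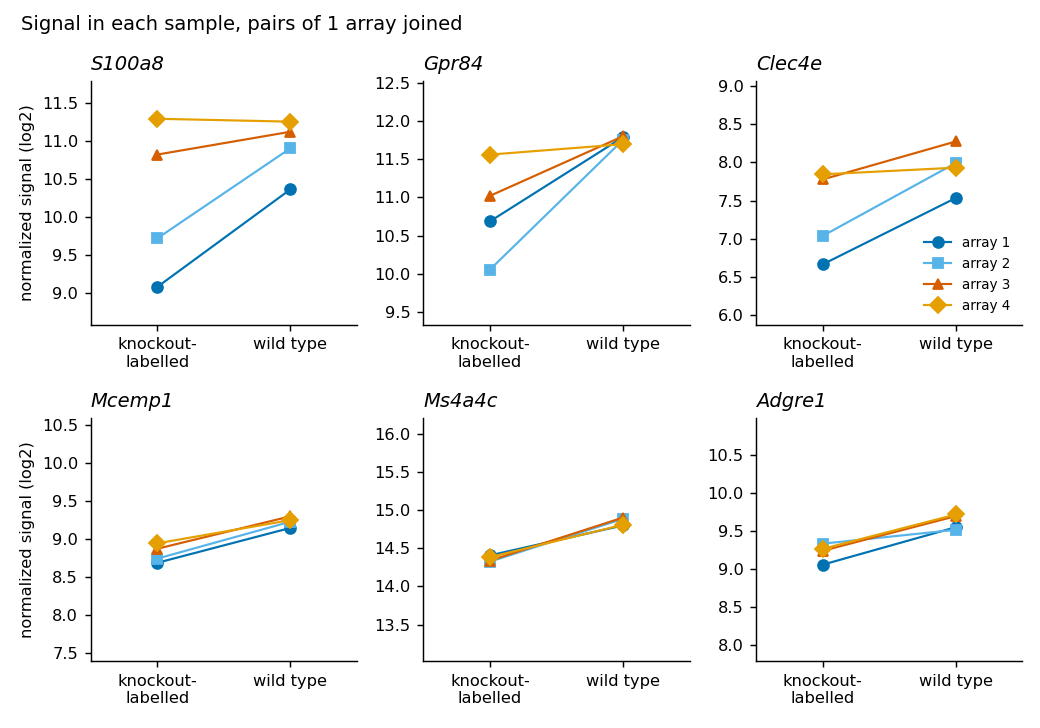
Normalized log2 signal (vertical axis, of the same span in every panel) of 6 members in each knockout-labelled sample (left) and wild-type sample (right), the pair of each array joined by a line. S100a8, Gpr84 and Clec4e spread widely among the knockout-labelled samples, with samples 1 and 2 low, whereas Mcemp1 and Ms4a4c run nearly parallel on the 4 arrays and Adgre1 on all but array 2.

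Of the 6 genes listed here for monocytes, Ms4a4c and Ly6c1 fell (33.3%, against 12.7% of all features). Ms4a4c, a membrane-spanning protein gene of monocytes, had 14.41, 14.33, 14.34 and 14.39 in knockout-labelled samples, against 14.80, 14.89, 14.91 and 14.81 in wild-type samples. The groups were far apart for their spread, and the difference was -0.49 ± 0.09 (SD, n = 4), a 1.40-fold fall (limma, adjusted p = 0.00233). Ly6c1, a surface protein gene that brain endothelium expresses, had 13.67, 14.11, 14.52 and 14.21 in knockout-labelled samples, against 14.25, 14.67, 14.56 and 14.56 in wild-type samples. The groups overlapped, and array 3 showed almost no difference, with a mean of -0.39 ± 0.25 (limma, adjusted p = 0.0251). Its second probe stood at -0.01. Ly6c2, another gene listed for monocytes, had no probe, so the fall of Ly6c1 cannot be assigned to monocytes. Lyz2, the lysozyme gene of myeloid cells, did not pass. It had 8.32, 8.43, 9.24 and 9.85 in knockout-labelled samples and 8.85, 9.03, 9.40 and 9.33 in wild-type samples, with a mean difference of -0.19 and a 95% interval of -0.59 to 0.20. The other monocyte genes stood at -0.37 for Ms4a6d (limma, adjusted p = 0.0736) and -0.30 for Plac8, whose arrays ran between -1.36 and 0.83. Slfn4, an interferon-responsive gene, was well above background in 0 knockout-labelled and 3 wild-type samples. It entered the test through the wild-type channel alone, stood at -0.12, -1.02, -0.09 and -0.17 on arrays 1 to 4, and did not pass (limma, adjusted p = 0.133).

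Adgre1, the macrophage surface gene, was the only one of the 5 macrophage genes to pass. It had 9.06, 9.33, 9.24 and 9.27 in knockout-labelled samples, against 9.55, 9.52, 9.70 and 9.72 in wild-type samples, without overlap. The difference was -0.40 ± 0.14 (SD, n = 4; limma, adjusted p = 0.00779). Arg1, which encodes arginase, had the lowest mean of all members and yet did not pass. Its log2 signals were 7.01, 8.39, 9.58 and 9.79 in knockout-labelled samples and 8.86, 9.89, 10.09 and 9.68 in wild-type samples. Sample 1 was lowest in both groups, and the difference was -0.93 ± 0.90 (limma, adjusted p = 0.0596). The scavenger receptor gene Msr1 stood at -0.80, -0.73, -0.24 and 0.25 on arrays 1 to 4 (limma, adjusted p = 0.132). The mannose receptor gene Mrc1 stood at -0.10 and the haemoglobin scavenger receptor gene Cd163 at 0.05, both marks of macrophages at brain borders.

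The arrays did not weigh equally in these differences. The median over the tested members was -0.44, -0.56, -0.23 and -0.02 on arrays 1 to 4, against -0.02 on each array over all features. On 21 of 34 members (61.8%) arrays 1 and 2 both lay below arrays 3 and 4, against 23.2% of all features. Array 2 was the lowest of the 4 for 18 members and array 1 for 10, and array 4 was the highest for 19. The knockout-labelled samples differed in the same way in level: samples 1 and 2 were both below samples 3 and 4 in 25 of 34 members (73.5%), against 20.5% of all features. In the wild-type samples the same held for 14 of 34 (41.2%), against 17.5% of all features. These patterns were looked for after the values were seen and are a description. Across all features, which are not independent, the correlation of log2 differences was 0.73 for the pair of arrays 1 and 2 and 0.63 for arrays 3 and 4. Every other pair had 0.41 to 0.48.

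The signs and the overlap of the groups were counted next. Below 0 on all 4 arrays were 14 of the 34 members (41.2%), against 25.1% of all features, and above 0 on all 4 was Ncf1 alone, against 18.7%. In 5 members (14.7%) every knockout-labelled sample lay below every wild-type sample: Gpr84, Ms4a4c, Mcemp1, Itgb2 and Adgre1, against 10.6% of all features, a share near the background. On arrays 3 and 4 alone, Mcemp1, Ms4a4c and Adgre1 passed with Mrc1, which is 11.8% of members against 4.53% of all features lower in that fit, and the median over members was -0.12.

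Different probes of a gene did not always show the same size. A second probe that passed the filter existed for 8 members, and its mean had the same sign in 7 of them. For Lilrb4a the probes stood at -0.62 and -0.47 with the same order of arrays, and for Msr1 at -0.38 and -0.21. For Itgam they stood at -0.24, -0.18 and -0.03, the second of which also passed (limma over all kept probes, adjusted p = 0.0362). For Adgre1 they stood at -0.40 and -0.09, and the second did not pass. For Ly6c1 they stood at -0.39 and -0.01, at mean log2 intensities of 14.3 and 11.8.

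The probes of Ms4a4c differed in pattern as well as size. The brightest, at a mean log2 intensity of 14.6, stood at -0.39, -0.56, -0.57 and -0.43 on arrays 1 to 4. The second, at 6.95, stood at -0.30, -1.45, 0.05 and 0.36, and the third, at 6.88, at -0.10, -0.89, 0.06 and 0.18. The even fall of Ms4a4c was thus seen with 1 of its 3 probes, and the dim probes varied with array 2 lowest. The probe sequences were not used here. Which transcripts a probe binds was therefore not tested, and genes with close copies (Ly6c1, Chil3, Lilrb4a, Fpr2 and the Ms4a genes) are uncertain as to the copy measured.

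**Figure D3:**
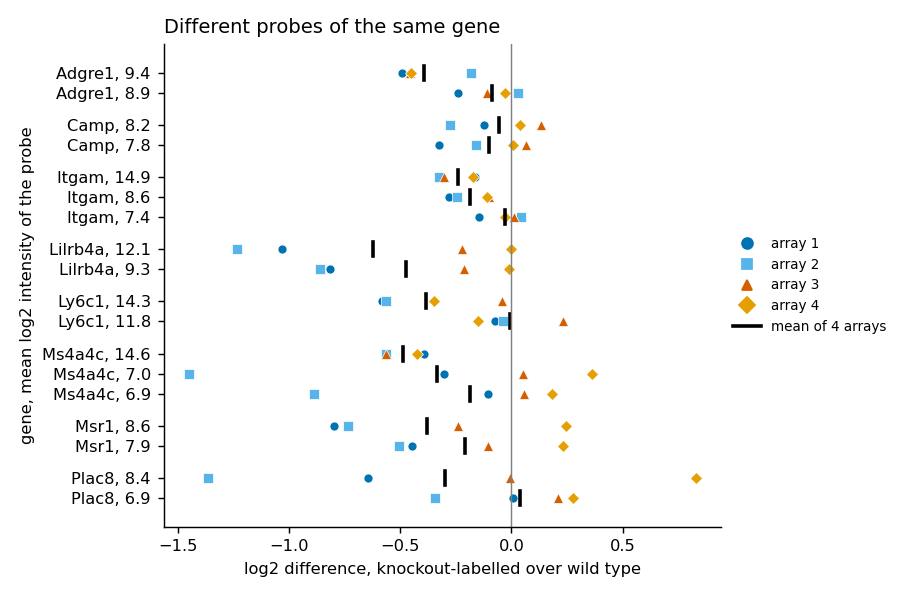
Log2 difference of knockout-labelled over wild type (horizontal axis) for every kept probe of the 8 members with more than 1, with the mean log2 intensity of the probe beside the gene name, 1 marker per array and a bar at the mean. Both probes of Lilrb4a and of Msr1 have arrays 1 and 2 below arrays 3 and 4, and those of Ms4a4c, Ly6c1 and Adgre1 do not show the same size.

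Other genes of the same cells and of their recruitment were taken from lists drawn up for this comparison, with earlier results of these data known. Of 103 tested genes that are not members, 22 fell and none rose (21.4% lower, against 12.7% of all features), with a median of -0.18. Among other neutrophil genes 6 of 27 fell (22.2%, against 12.7% of all features), with a median of -0.16. The antiprotease gene Slpi fell by 0.69 ± 0.30 (limma, adjusted p = 0.00784) and Pglyrp1, a peptidoglycan-binding granule protein gene, by 0.28 ± 0.08 (limma, adjusted p = 0.0100). Csf2ra, a receptor subunit for granulocyte-macrophage colony-stimulating factor, fell by 0.39 ± 0.22 (limma, adjusted p = 0.0177). Among other monocyte and macrophage genes 6 of 36 fell (16.7%, near the 12.7% of all features), with a median of -0.17. They included Fcer1g, the signalling chain of Fc receptors, at -0.45 ± 0.26, the transcription factor gene Cebpb at -0.22 ± 0.08, and the ribonuclease gene Ear2, which lies on chromosome 14 as Ndrg2 does, at -0.30 ± 0.17. The monocyte chemokine receptor gene Ccr2, named after its value was seen, stood at -0.35, -0.49, 0.13 and 0.60 on arrays 1 to 4.

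Of 5 partners of the phagocyte oxidase 3 fell (60.0%, against 12.7% of all features), with a median of -0.23. Cyba, the membrane subunit that pairs with the product of Cybb, fell by 0.36 ± 0.17 (limma, adjusted p = 0.0142), the proton channel gene Hvcn1 by 0.23 ± 0.08 (limma, adjusted p = 0.0155), and the small GTPase gene Rac2 by 0.37 ± 0.28 (limma, adjusted p = 0.0370). Whether these differed from Cybb, Ncf1 and Ncf4 was not tested. Chemoattractants and their receptors had the lowest median of these lists, -0.46, and 6 of 20 fell (30.0%). Ccl9 fell by 1.05 ± 0.58 (limma, adjusted p = 0.0120), C3ar1, the receptor gene for complement C3a, by 0.45 ± 0.18 (limma, adjusted p = 0.00792), and Cxcl3, a neutrophil chemokine gene, by 0.47 ± 0.23 (limma, adjusted p = 0.0116). Cxcl3 was well above background in 2 knockout-labelled and 4 wild-type samples, so it entered the test through the wild-type channel alone. Of 18 adhesion molecules of leukocyte entry 1 fell (5.56%, against 12.7% of all features), Cd44 at -0.34 ± 0.23 (limma, adjusted p = 0.0298). Their median was -0.08. On arrays 1 to 4 it was -0.24, -0.19, 0.04 and 0.11, against -0.02 on each array over all features.

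Markers of other cells moved to differing degrees. Of 20 microglia markers 8 fell (40.0%, against 32.4% of the members and 12.7% of all features), and their medians were even over the arrays, at -0.12, -0.14, -0.07 and -0.20. Their summed log2 signal was 17.88 to 17.95 in knockout-labelled samples and 18.07 to 18.12 in wild-type samples, and all 20 passed the filter on dim probes. Ctss, a lysosomal protease gene, fell by 0.45 ± 0.11 (limma, adjusted p = 0.00329) and the fractalkine receptor gene Cx3cr1 by 0.29 ± 0.06 (limma, adjusted p = 0.00720). Erythrocyte genes, by contrast, followed the order of the members, with medians of -0.23, -0.57, -0.01 and 0.15 on arrays 1 to 4. None of the 7 tested passed (limma; 1 had an unadjusted p under 0.05), and their summed log2 signal was 16.40 to 16.81 in knockout-labelled samples and 16.63 to 16.86 in wild-type samples. This order was not particular to erythrocyte genes. The medians were -0.22, -0.20, -0.03 and 0.02 for endothelial markers without Ly6c1, and -0.24, -0.19, 0.04 and 0.11 for adhesion molecules of leukocyte entry. They were -0.25, -0.26, -0.05 and 0.04 for other neutrophil genes. The part of microglia, and of blood left in the vessels, in the differences of the members was not tested.

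Over all features 12.7% fell and 8.63% rose. Of 11 tested markers of T, B and natural killer cells 2 fell (18.2%), Nkg7 and Il2rb. Il2rb was well above background in 1 knockout-labelled and 4 wild-type samples and entered through the wild-type channel alone. The list had summed log2 signals of 12.02 to 12.37 in knockout-labelled samples and 12.12 to 12.42 in wild-type samples. The markers Cd3g, Cd8a, Klrb1c and Ncr1 were not well above background on any array. Of 11 markers of mast cells, basophils and eosinophils 7 were not well above background on any array. Of 4 tested 1 fell (25.0%), Tpsb2. The summed log2 signals were 11.12 to 11.25 in knockout-labelled samples and 11.25 to 11.34 in wild-type samples. Of 7 tested dendritic cell markers 2 fell (28.6%), among them the chemokine receptor gene Ccr7 at -0.41 ± 0.11 (limma, adjusted p = 0.00443). Of 10 markers of border-associated macrophages none passed (2 had an unadjusted p under 0.05), and of 8 platelet markers Itga2b rose (12.5%). Of 14 endothelial markers, which include Ly6c1, 3 fell (21.4%) and 1 rose (7.14%). Their summed log2 signals were 15.90 to 16.41 in knockout-labelled samples and 16.10 to 16.30 in wild-type samples. Of 12 astrocyte markers 3 fell (25.0%) and of 11 neuronal markers 2 fell (18.2%), with medians of -0.10 and 0.03.

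**Figure D4:**
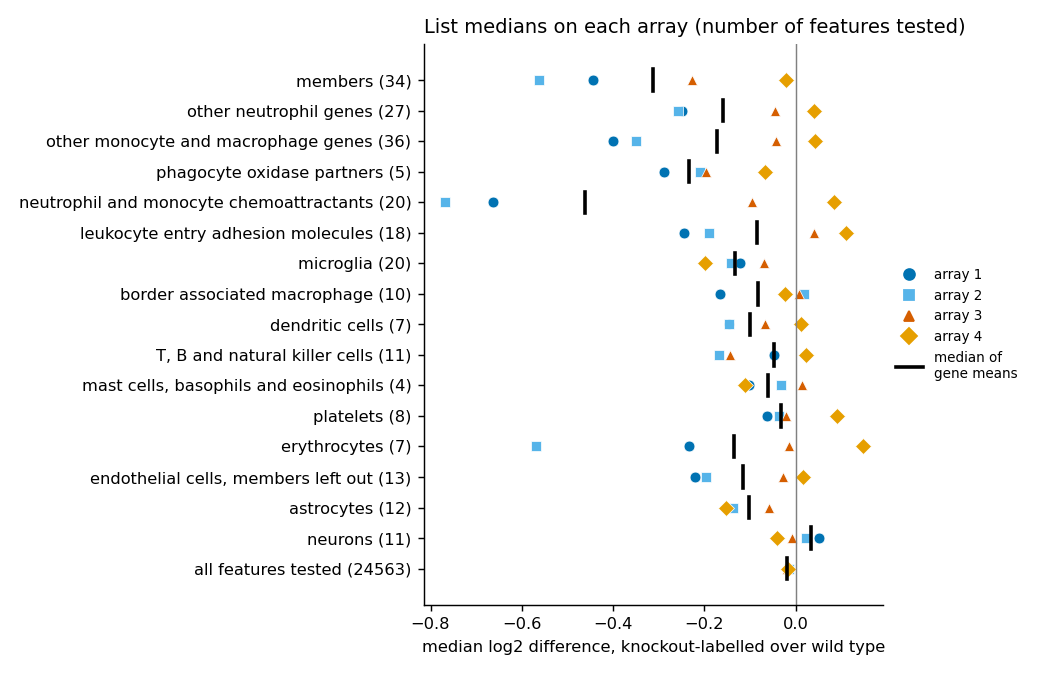
Median log2 difference of knockout-labelled over wild type (horizontal axis) of each gene list on each array, with a bar at the median of the gene means and the number of features tested in brackets. Members, chemoattractants, other neutrophil and monocyte genes, adhesion molecules, endothelial markers and erythrocyte genes are lowest on arrays 1 and 2. Microglia and astrocyte markers stay near the same value on the 4 arrays, and all features lie at -0.02.

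The calls differed in how they stood up to other processing. Mcemp1 passed in all 18 alternatives run for it, at -0.58 to -0.37. Adgre1 passed in 18 of 19, failing with its second probe, and Ms4a4c in 17 of 19, failing with its second probe and with the mean of its probes. Itgam passed in 15 of 19, Elane in 12 of 18, Csf3r in 11 of 18, and Gpr84, Clec4e and Fpr2 in 10 of 18 each. Ly6c1 passed in 9 of 19 and Itgb2 in 7 of 18, and the lowest and highest values of Itgb2 were -0.62 and -0.12. S100a8 and S100a9 passed in 2 of 18 each, which were median centring instead of loess and leaving out replicate 4.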

How the data were processed

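Agilent Feature Extraction 11.0.1.1 wrote the 4 scanner files per the file headers; version 10.7.3.1 is named in the submitters' processing notes. Per the file headers, the spot signal and its background are linear intensity values, the log10 ratio is Cy5 over Cy3 of background-subtracted, dye-normalized signals, and the flags are other values, 0 or 1. The labels' protocols give 200 ng of RNA, in a text that speaks of plant material. The deposited series matrix holds log2 values that equalled Cy5 over Cy3 of the processed signals for all 39030 single-spot probes to within 0.001, so it runs as wild type over knockout and its sign was turned. The array design is annotated on mm9 per the file headers, so no array coordinates are given; promoters are those of GRCm38.p6.

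Median spot signals were corrected with normexp (offset 50) and normalized by loess within arrays, using limma 3.58.1 under R 4.3.3, where control spots had weight 0. Control and outlier spots (139 to 186 per array) were left out and spots of a probe averaged. Probes well above background on at least 3 of 4 arrays in either channel were kept (30257 of 39429). Accessions were named through RefSeq genes of GRCm38.p6 (27427 probes matched). The log2 ratio was tested against 0 (lmFit, then eBayes), and p-values of the 24563 features received the Benjamini-Hochberg adjustment; the array is thereby the block that pairs 2 samples of the same number. Levels are loess and Aquantile values. The steps were tested on simulated data.

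The members and lists were chosen with earlier results of these data known. Named were all members, Ndrg2, and up to 3 passing genes with the smallest p per list; any other gene is marked as picked once its values were known. Alternatives were other background corrections, scalings, filters, probe choices and variance models, no replicate block, and each replicate left out.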

Additional observations from a re-analysis of the deposited data

Results flagged for a closer look

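Among 35 genes, the tested members and Ndrg2, 2 had an array that stood apart from the other 3 by Dixon's criterion, which divides an extreme array's distance to the next one by the range. About 1 in 20 genes does so by chance, or 1.75 of 35. For Adgre1 the ratio was 0.867, since array 2 stood at -0.18 and the other arrays averaged -0.47. For Slfn4 it was 0.91, since array 2 stood at -1.02 and the other arrays averaged -0.13. Wild-type sample 2 of Slfn4 was the highest of the 8, at 7.36.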

How the results depend on the processing

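Beside 11 lower members and 3109 lower and 2120 higher features, plain subtraction gave 5, 1735 and 1342, the scanner software's log ratios 4 and 1752 lower, and the deposited matrix 4 and 1751 lower. With no replicate block the counts were 4, 1561 and 1261. Median centring, which moved the median of all features to -0.18, gave 23 lower and 4 higher members (Cd163, Cebpe, Cybb and Mpo) and 13177 lower and 6327 higher features. Leaving out 1 replicate gave 3 to 19 lower members, 1219 to 1918 lower and 808 to 1264 higher features. The added setting without replicates 1 and 2, chosen after seeing the data, gave 4, 1112 and 699. For other genes of the pathway, 22 lower became 7 with the scanner ratios and with the deposited matrix, 8 with plain subtraction, 4 with no replicate block, 72 with median centring, 6 without replicates 1 and 2, and 6 to 33 with 1 replicate left out. Higher ones, 0 in the reported fit (0 with any 1 replicate left out), became 15 with median centring, 1 with no background correction, with scanner ratios and with the deposited matrix, and 2 without replicates 1 and 2. The members' median ranged from -0.49 to -0.12 over all settings.

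Values that changed sign were, with median centring, Cebpe at 0.60 and Mpo at 0.38, both past the threshold, and Slfn4 at 0.27 and Chil3 at -0.13. Cybb stood at -0.054 with no background correction, -0.0070 with plain subtraction, and -0.26 with scanner ratios and the deposited matrix. Plac8 stood at 0.037 with its second probe. With 1 replicate left out, Camp ran from -0.12 to 0.017, Cebpe from -0.066 to 0.017, Chil3 from -0.34 to 0.43, Cybb from -0.079 to 0.064, Mpo from -0.10 to 0.041 and Plac8 from -0.67 to 0.060. Without replicates 1 and 2 the values were 0.087 for Camp, -0.0051 for Cd163, 0.077 for Cebpe, 0.18 for Lyz2, 0.0042 for Msr1, 0.41 for Plac8, 0.00074 for Retnlg and 0.0095 for S100a9. The causes were not tested. Of 635 single-gene values, 513 kept sign and side of the threshold, 72 lost their call, 27 gained one and 23 changed sign. Dim members (Cd163, Cebpe, Slfn4, Mpo, Cybb) are limited by signal over background.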
